A study of Mus musculus with 20 samples.

Results

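The genes described here are 10 mouse genes of the antioxidant response. They are Nfe2l2, which encodes the transcription factor NRF2, the NRF2 target genes Hmox1, Nqo1, Gclm, Gclc, Srxn1, Txnrd1, and Slc7a11, and the superoxide dismutase genes Sod2 and Sod3. They were picked out by gene name, and 11 of the 55681 noncontrol probes of the array carried a name of the set. Hmox1 had 2 probes and each of the other genes had 1.

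RNA from a snap-frozen piece of diaphragm was measured on 1-color 60-mer arrays in 20 mice (female, C57Bl/6), 4 in each of 5 groups. At an age of 8 weeks all mice received 100 µL of 0.5% BSA in saline into the pleural cavity, and tissue was taken 12 weeks later. The control group received this vehicle alone. The LFA group received 25 µg of long-fiber amosite asbestos, in which 100% of fibers were at least 5 µm long and 50.3% were longer than 15 µm. The SFA group received 25 µg of amosite of the same origin that had been ball milled, so that 3.1% of fibers were at least 5 µm long. The NTL and NTS groups received 5 µg of long and short carbon nanotubes, so the dose differed between asbestos and nanotubes. The design asks which transcripts differ between fiber-exposed and vehicle mice, and whether long and short forms of a material differ. The tissue is a whole piece of diaphragm, which holds muscle as well as its pleural surface and any lesion on it.

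NRF2 is held in the cytoplasm by KEAP1, which directs its degradation. Oxidants and electrophiles modify KEAP1, NRF2 then accumulates in the nucleus, pairs with small MAF proteins, and binds antioxidant response elements in front of genes for glutathione synthesis, thioredoxin recycling, heme breakdown, and quinone reduction. BACH1 is a repressor that competes for the same elements and leaves them when it binds heme. Asbestos fibers carry iron and keep macrophages that cannot engulf them in an activated state, which is why this response is commonly followed in fiber-exposed tissue.

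The element has a short core, and the windows from 250 bases before to 50 bases after the RefSeq start sites were searched for it on both strands as TGACNNNGC or TGAGNNNGC, whose reverse complements read GCNNNGTCA and GCNNNCTCA. RefSeq windows were at hand for 7 of the 10 genes, all but Hmox1, Gclc, and Sod3, and 5 of the 7 held a match in at least 1 window. The background is high: 27.8% of 32851 windows and 30.8% of 27025 genes held a match. The 250 bases upstream are shown for Srxn1 and Gclm, which hold a match, and for Sod2, which holds none and which was called lower in NTL than in control. Capitals mark the core matches.

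Srxn1 (GRCm38.p6, chr2:152105274-152105523, plus strand): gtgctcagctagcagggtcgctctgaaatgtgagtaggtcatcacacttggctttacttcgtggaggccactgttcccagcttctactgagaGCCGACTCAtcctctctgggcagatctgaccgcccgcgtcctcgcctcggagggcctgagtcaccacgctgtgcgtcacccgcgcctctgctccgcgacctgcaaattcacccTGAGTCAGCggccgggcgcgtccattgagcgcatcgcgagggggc

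Gclm (GRCm38.p6, chr3:122245307-122245556, plus strand): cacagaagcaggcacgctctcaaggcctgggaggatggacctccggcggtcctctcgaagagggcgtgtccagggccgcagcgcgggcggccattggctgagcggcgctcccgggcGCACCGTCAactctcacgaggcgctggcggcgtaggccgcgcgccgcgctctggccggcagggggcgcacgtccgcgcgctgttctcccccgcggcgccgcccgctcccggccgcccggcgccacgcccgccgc

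Sod2 (GRCm38.p6, chr17:13007589-13007838, plus strand): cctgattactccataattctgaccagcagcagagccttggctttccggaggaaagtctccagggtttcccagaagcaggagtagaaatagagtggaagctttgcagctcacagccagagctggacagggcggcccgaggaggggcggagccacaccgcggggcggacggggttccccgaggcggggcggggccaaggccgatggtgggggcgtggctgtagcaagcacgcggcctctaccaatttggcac

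In Srxn1 the core match that begins 45 bases before the start site, TGAGTCAGC, overlaps an AP-1 site (TGANTCA), and AP-1 sites are found in 7.81% of all windows. A further Srxn1 match, GCTAGGTCA, begins 28 bases after the start site and so lies outside the bases shown. The match in Gclm begins 134 bases before the start site. The other matches were GCTTTGTCA in Txnrd1, 92 bases before a start site, GCTTTCTCA in Slc7a11, 97 bases before, and TGACTCCGC in Nfe2l2, 240 bases before. Nqo1 and Sod2 had no match in these windows.

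The values are log2 signals minus the 75th percentile of the array, called relative signals here, so that 0 is the 75th percentile itself and a difference of 1 is 2-fold. Probes that stood well above background in 4 or more of the 20 mice were tested, 36930 in all, and 10 of them covered 9 of the 10 genes. A probe was called when limma gave a change of at least 2-fold and a Benjamini-Hochberg adjusted p under 0.05 over all 36930 probes. Comparisons with control share the 4 control arrays. The arrays came from 3 slides, each with control mice on it, and NTL lay on slides 2 and 3 and NTS on slides 1 and 2. All 10 skeletal muscle markers were well above background on every array and between 1 and 2 of 6 lung markers were above background on every array of a group. Relative to the 75th percentile, the median of all tested probes moved against control by -0.28 in LFA, -0.25 in NTL, -0.11 in SFA, and -0.06 in NTS. Liver transcripts were present at very different levels between mice of the same group, as described with Gclc and Gclm.

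At 12 weeks the genes of the set did not all move in the same direction in any fiber group. Hmox1, which encodes heme oxygenase 1, was higher at its brighter probe in both long-fiber groups than in the short form of the same material. The difference was 2.26-fold in LFA against SFA and 2.06-fold in NTL against NTS. The other Hmox1 probe was not called in any comparison. Sod2, the mitochondrial superoxide dismutase, was 2.15-fold lower in NTL than in control. Nqo1, Srxn1, Txnrd1, Sod3, and Nfe2l2 itself did not pass the test in any comparison, and Gclc and Gclm were high in single mice of LFA and NTS.

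**Figure D1:**
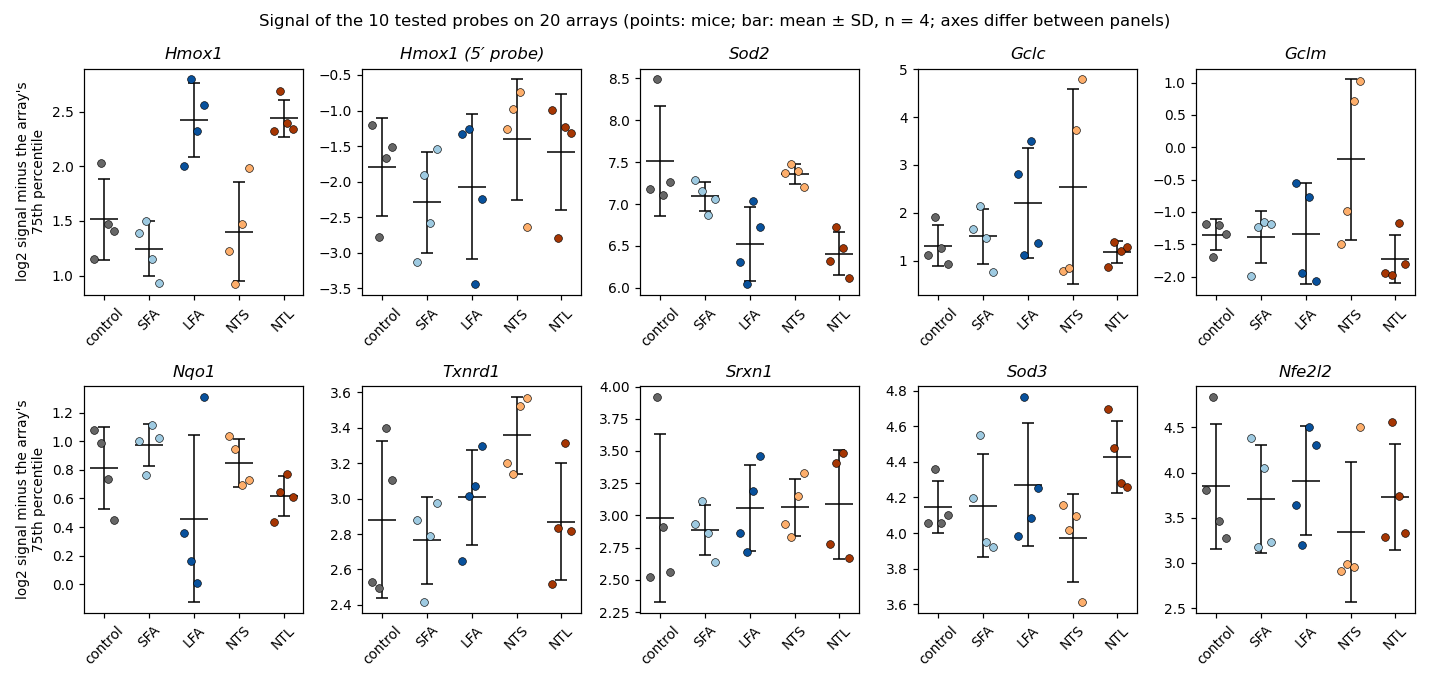
Relative signal (log2 signal minus the 75th percentile of the array, vertical axis) of the 10 tested probes in each mouse by group; points are mice, bars the mean ± SD, n = 4, and the axes differ between panels. Hmox1 is high in all 4 NTL mice and in the LFA mice, Sod2 is low in both groups, and Gclc and Gclm are high in some LFA and NTS mice only.

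Against control, 0 of the 9 genes were called in LFA by limma, where 3.96% of all tested probes were called. In LFA 2 of the 9, Hmox1 and Sod2, had an unadjusted p under 0.05, beside 24% of all tested probes. The methods' test, the analysis of variance over the 5 groups that the study's methods name, called Sod2 (adjusted p = 0.0269) when probes at least 2-fold from control in any group were taken first, as the methods do, and p-values were adjusted over those 10961 alone, beside 7.19% of all tested probes. With that test's p-values adjusted over all tested probes and the same fold rule, 0 of the 9 and 2.99% of all probes were called: Sod2 had an adjusted p of 0.0685, and Hmox1, at 0.0403, was short of 2-fold. In NTL 1 of the 9 was called, Sod2, against 6.8% of all tested probes. Without the fold requirement 2 of the 9, Hmox1 and Sod2, passed the adjusted p in NTL, against 7.82% of all tested probes. In SFA and in NTS limma called 0 of the 9 and 0% of all probes, and 0 and 1 of the 9 had an unadjusted p under 0.05, beside 2.3% and 3.52% of all tested probes. The median change of the 9 genes was 0.08 in LFA, -0.11 in NTL, -0.09 in SFA, and 0.04 in NTS. The medians of all tested probes were -0.28, -0.25, -0.11, and -0.06 in the same order. Changes above 0 were seen in 7 of the 9 in LFA, 3 in NTL, 3 in SFA, and 5 in NTS. Among all tested probes the shares above 0 were 33.8%, 34.8%, 38.7%, and 43.1%.

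**Figure D2:**
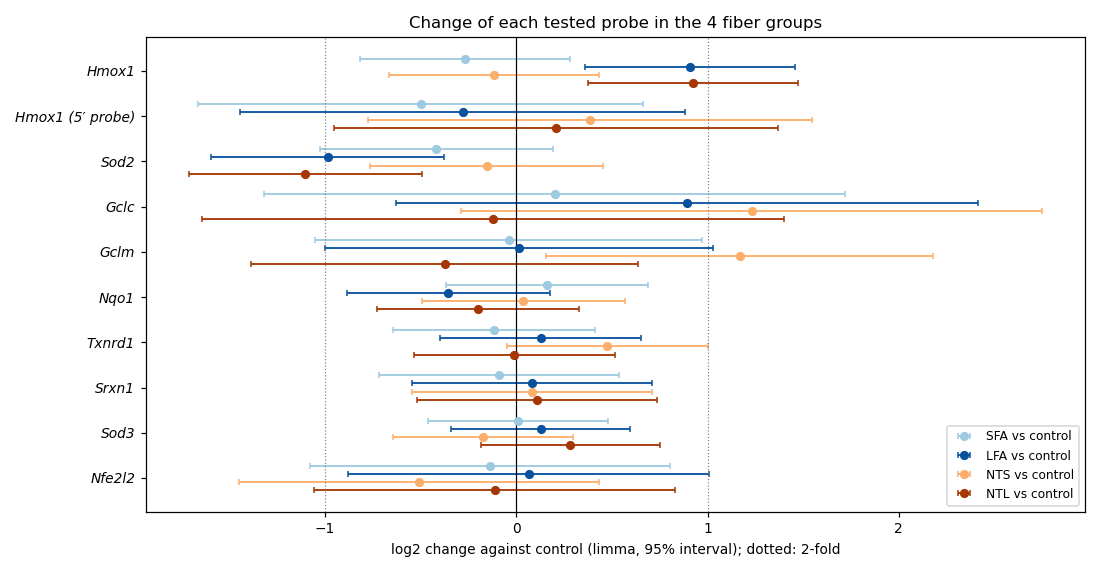
Log2 change against control (horizontal axis, with 95% intervals from limma) of each tested probe in the 4 fiber groups; dotted lines mark 2-fold. The intervals of Hmox1 in LFA and NTL lie above 0 and those of Sod2 below 0, while nearly all others include 0.

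Nfe2l2, the gene of NRF2 itself, stood at a mean relative signal of 3.85 ± 0.70 in control, 3.71 ± 0.60 in SFA, 3.91 ± 0.60 in LFA, 3.34 ± 0.77 in NTS, and 3.73 ± 0.59 in NTL (SD, n = 4 each). All 5 groups overlapped. The change against control was 0.06 in LFA (95% interval -0.88 to 1.01) and -0.11 in NTL (-1.06 to 0.83), and these wide intervals reach about 2-fold. NRF2 is controlled mainly through the stability of the protein, which arrays do not measure. Keap1, which encodes the inhibitor of NRF2, changed by -0.25 in LFA (-0.72 to 0.23) and -0.47 in NTL (-0.94 to 0.00), and neither passed limma's test. Bach1, the heme-binding repressor, changed by 0.34 in LFA (-0.23 to 0.92) and 0.40 in NTL (-0.18 to 0.97), and did not pass either.

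Hmox1 encodes the enzyme that splits heme into biliverdin, iron, and carbon monoxide, and it is abundant in macrophages that clear red cells. Its probe toward the 3′ end of the transcript (NCBI37, chr8:77624207-77624266, plus strand) gave relative signals of 1.15, 2.04, 1.47, and 1.41 in the 4 control mice. In SFA it gave 1.39, 1.5, 1.15, and 0.93, and in NTS 1.23, 0.92, 1.48, and 1.98. In LFA it gave 2.0, 2.80, 2.32, and 2.56, and in NTL 2.33, 2.69, 2.40, and 2.34. Every NTL mouse was above every control and NTS mouse, and every LFA mouse was above every SFA mouse. Such an order, each mouse of the first group above each of the second, was seen in 6.36% of all tested probes for NTL against control, 3.13% for LFA against SFA, and 7.66% for NTL against NTS. LFA replicate 1 was level with control replicate 2, the highest control, and the other LFA mice were above all controls.

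The Hmox1 change was 1.18 in LFA against SFA (SE 0.26, 95% interval 0.63 to 1.73, limma adjusted p = 0.0315) and 1.04 in NTL against NTS (SE 0.26, 0.49 to 1.59, limma adjusted p = 0.0191), and both were called. It was the only gene of the 9 called in either comparison, against 1.16% of all probes in LFA against SFA and 7.57% in NTL against NTS. Against control the change was 0.91 in LFA (0.36 to 1.46, 1.87-fold, limma adjusted p = 0.0551), which did not pass, and 0.93 in NTL (0.38 to 1.47, 1.90-fold, limma adjusted p = 0.0370), which passed the adjusted p but not 2-fold. Set against the median of all probes these changes were 1.19 and 1.18. With quantile normalization the NTL change against control was 1.08 (limma adjusted p = 0.00631) and was called. LFA and NTL differed by -0.02 (-0.57 to 0.53). SFA and NTS differed from control by -0.27 (-0.82 to 0.28) and -0.11 (-0.66 to 0.44).

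Since 3 slides held more than 1 group, Hmox1 was also compared within slides. LFA exceeded control by 1.03 on slide 1, 0.41 on slide 2, and 1.33 on slide 3, and NTL exceeded control by 0.73 on slide 2 and 1.01 on slide 3. LFA exceeded SFA by 0.56 and 1.76 on slides 2 and 3, and NTL exceeded NTS by 1.25 on slide 2, which alone held both. Each of these differences had a single mouse on at least 1 side. With slide as a block the changes stayed close, at 1.08 for LFA against SFA and 1.11 for NTL against NTS, but their limma adjusted p rose to 0.122 and 0.091 and neither was called. There were 14 alternatives besides leaving out single mice, among them a fit of only the groups compared and the covariate fits chosen after seeing the data. Over these 14 the limma adjusted p ran from 0.00500 to 1.0 for LFA against SFA and from 2.34e-05 to 0.993 for NTL against NTS, and each call was kept in 7 of the 14. Leaving out single mice, the LFA against SFA change ran from 1.05 to 1.32 and lost its call without SFA replicate 1, 2, 3, or 4 or LFA replicate 2 or 4, and the NTL against NTS change ran from 0.88 to 1.23 and lost its call without NTS replicate 1 or 2 or NTL replicate 2. Without control replicate 2, the highest control, Hmox1 was called against control in both LFA (1.08, limma adjusted p = 0.0346) and NTL (1.10, limma adjusted p = 0.0194). That array had the lowest 75th percentile of all arrays, as described with Sod2.

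The other Hmox1 probe lies 966 bases farther toward the 5′ end, in the coding part of the transcript. It is shown because its readings did not follow those of the 3′ probe.

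Hmox1 5′ probe (NCBI37, chr8:77620797-77620856, plus strand): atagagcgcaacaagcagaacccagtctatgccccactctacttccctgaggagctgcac

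This probe was dimmer, with relative signals of -1.20, -2.78, -1.67, and -1.51 in control, -1.34, -1.25, -3.44, and -2.24 in LFA, and -0.99, -2.79, -1.23, and -1.31 in NTL. The groups overlapped throughout. Its change against control was -0.28 in LFA (-1.44 to 0.88) and 0.21 in NTL (-0.95 to 1.37), and it was called in 0 of the 8 comparisons. The NTL interval includes the change of the 3′ probe, 0.93, and the LFA interval ends just below that of the 3′ probe, 0.91. Between long and short fibers the 5′ probe changed by 0.22 in LFA against SFA and by -0.18 in NTL against NTS. The 3′ probe, called in both, changed by 1.18 and 1.04, so the probes differed in direction in NTL against NTS. With the mean of both probes, Hmox1 changed by 0.31 in LFA and 0.57 in NTL against control, by 0.70 in LFA against SFA (limma adjusted p = 0.243), and by 0.43 in NTL against NTS (limma adjusted p = 0.312), so that no call remained.

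The 5′ probe varied with how evenly an array read the ends of long transcripts. For each array, the difference between a 5′ and a 3′ probe of the same transcript was averaged over 1132 transcripts with probes at least 1000 bases apart and centered on its mean over arrays. The index ran from -0.56 to 0.47, and the 5 lowest arrays were SFA replicate 1 (-0.56), LFA replicate 3 (-0.49), NTL replicate 2 (-0.45), NTS replicate 4 (-0.36), and control replicate 2 (-0.34), 1 in each group. The same 5 arrays had the 5 lowest readings of the Hmox1 5′ probe, from -3.44 to -2.64. With the index as a covariate, chosen after seeing the data, the 5′ probe changed by 0.58 in NTL against control (SE 0.23, limma adjusted p = 0.0961) and by 0.38 in LFA (SE 0.24, limma adjusted p = 0.314). In the same fit the 3′ probe changed by 0.82 in NTL (SE 0.21) and 0.73 in LFA (SE 0.22), with limma adjusted p of 0.0143 and 0.0434. In NTL against NTS the 3′ probe changed by 0.87 there (SE 0.22, limma adjusted p = 0.0122), short of 2-fold, so that this call was lost. Its call in LFA against SFA was kept.

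**Figure D3:**
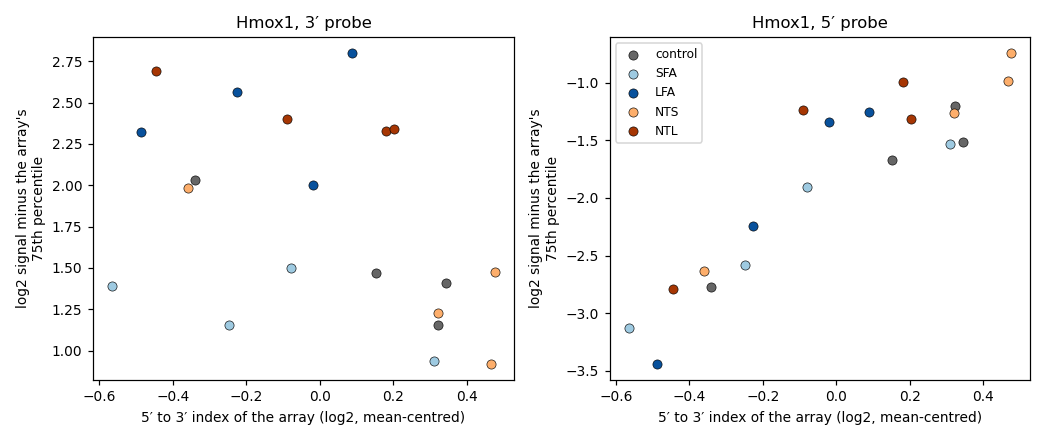
Relative signal (vertical axis) of the 3′ probe (left) and the 5′ probe (right) of Hmox1 against the 5′ to 3′ index of the array (horizontal axis, log2, mean-centered), with a point for each of the 20 mice. On the left NTL lies above control, SFA, and NTS and LFA reaches down to the highest control, and on the right readings fall with the index, to -3.44 in LFA replicate 3.

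Transcripts of other cell types moved with Hmox1. Of 10 macrophage markers, 8 were called higher in LFA and 8 in NTL against control, beside 2.21% and 3.64% of all tested probes. Their mean relative signal was 1.08 ± 0.08 in control, 1.15 ± 0.27 in SFA, and 1.12 ± 0.21 in NTS, against 2.76 ± 0.55 in LFA and 3.18 ± 0.10 in NTL (SD, n = 4). Summed over the list, the linear signal ran from 45.7 to 66.9 times the 75th percentile in control, 123 to 222 in LFA, and 193 to 267 in NTL. Both long-fiber ranges lay above the control range and overlapped each other. Of these markers 9 of 10 were well above background on every array. Fibroblast markers were called higher in 1 of 8 in LFA and 5 of 8 in NTL against control and in 0 of 8 in LFA against SFA and 6 of 8 in NTL against NTS, and B and plasma cell markers in 2 of 8, 2 of 8, 1 of 8, and 2 of 8 in the same order. Of all tested probes, 1.03% were called higher in LFA against SFA and 4.92% in NTL against NTS. The part of these lists in the Hmox1 result was not tested. With the macrophage list as a covariate, chosen after seeing the data, Hmox1 changed by 0.65 (SE 0.58) in LFA against SFA and 0.37 (SE 0.72) in NTL against NTS, and since list and group moved together in these mice, the part of either cannot be told apart. In whole tissue, more cells of a type and more RNA per cell cannot be told apart either.

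Sod2 encodes the manganese superoxide dismutase of mitochondria, which turns superoxide into hydrogen peroxide. Its probe (NCBI37, chr17:13208074-13208133, plus strand) was the brightest of the set. It gave relative signals of 7.18, 8.49, 7.11, and 7.26 in control, 7.28, 7.15, 6.87, and 7.06 in SFA, and 7.37, 7.47, 7.39, and 7.20 in NTS. In LFA it gave 6.31, 6.04, 7.04, and 6.72, and in NTL 6.32, 6.72, 6.47, and 6.11. Every LFA and NTL mouse was below every control mouse, and 11.8% and 13.9% of all tested probes had their 4 LFA or NTL mice below all controls.

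Sod2 fell by 1.10 on the log2 scale in NTL against control (SE 0.29, 95% interval -1.71 to -0.50, limma adjusted p = 0.0259), and was called. In LFA the change was -0.98 (-1.59 to -0.38, 1.98-fold lower, limma adjusted p = 0.0586) and did not pass. NTL was lower than NTS by 1.93-fold (-0.95, -1.56 to -0.34, limma adjusted p = 0.0485), short of 2-fold, and LFA against SFA gave -0.57 (-1.17 to 0.04, limma adjusted p = 0.432). Set against the median of all probes, the changes against control were -0.85 in NTL and -0.70 in LFA. Quantile normalization brought them to -0.55 and -0.60, with limma adjusted p of 0.0425 and 0.0409, and the NTL call was lost for its size.

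Control replicate 2 read well above the other controls for Sod2, and without it the change was -0.78 in NTL (limma adjusted p = 0.0609) and -0.66 in LFA. The NTL call was also lost without NTL replicate 1 or 4. Within slides, with a single mouse on at least 1 side each time, LFA differed from control by -0.38, -1.53, and -1.07. NTL differed by -1.52 and -0.67, and the larger differences were on slide 2, which held control replicate 2. With slide as a block the NTL change was -0.94 (limma adjusted p = 0.104). Over the 14 alternatives besides leaving out single mice the adjusted p ran from 4.94e-04 to 1.0, with the call kept in 7.

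Over the 20 arrays the genes most like Sod2, among 18485 other named genes, were Fam158a (Pearson r = 0.99), Ndufa6 (r = 0.99), and Sdhd (r = 0.99). They changed by -0.87, -1.03, and -1.05 in LFA and by -1.05, -1.20, and -1.01 in NTL against control. The arrays share depth and tissue composition, and the likeness is a description over 20 arrays.

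Skeletal muscle and adipocyte markers moved with Sod2. The mean relative signal of the 10 markers was 8.57 ± 0.22 in control, 8.20 ± 0.15 in SFA, and 8.27 ± 0.52 in NTS, against 7.65 ± 0.26 in LFA and 7.29 ± 0.05 in NTL (SD, n = 4), and all 10 were well above background on every array. Of the 10, 2 were called lower in LFA and 3 in NTL against control, with median changes of -0.98 and -1.02. Among all tested probes, 1.75% were called lower in LFA and 3.16% in NTL. Of 5 adipocyte markers, 1 was called lower in LFA and 3 in NTL, with median changes of -0.98 and -1.39, and their part in the Sod2 result was not tested. The summed linear signal of the 10 muscle markers ran from 4189 to 6600 times the 75th percentile in control and from 2152 to 2613 in NTL, with no overlap. With the muscle list as a covariate, chosen after seeing the data, Sod2 changed by -0.20 in NTL (SE 0.50) and -0.33 in LFA (SE 0.41), and list and group moved together, so the part of either cannot be told apart.

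Sod3, the extracellular superoxide dismutase that binds to matrix, stood at 4.14 ± 0.15 in control, 4.27 ± 0.35 in LFA, and 4.43 ± 0.20 in NTL (SD, n = 4). It changed by 0.28 in NTL (-0.19 to 0.75) and 0.13 in LFA (-0.34 to 0.60) against control. All 4 NTL mice were above all 4 NTS mice, by 0.46 on average (-0.01 to 0.93, limma adjusted p = 0.212), and 7.66% of all tested probes showed that order. Sod1, the cytosolic superoxide dismutase, changed by -0.31 in LFA (-1.32 to 0.71) and -0.86 in NTL (-1.88 to 0.15) against control. Cat, which encodes catalase, changed by -1.0 in LFA (-2.42 to 0.42) and -0.89 in NTL (-2.31 to 0.53), and neither gene passed.

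Gclc and Gclm encode the catalytic and modifier subunits of glutamate-cysteine ligase, the enzyme that starts glutathione synthesis. Gclc gave relative signals of 1.12, 1.92, 1.26, and 0.94 in control and 0.86, 1.39, 1.21, and 1.29 in NTL. In LFA it gave 2.81, 1.12, 3.50, and 1.38, and in NTS 0.79, 0.85, 3.73, and 4.80. A pair of mice in LFA and a pair in NTS were thus far above the rest of their own groups, while control and NTL overlapped closely. The change was 0.89 in LFA (SE 0.72, -0.63 to 2.41) and 1.23 in NTS (SE 0.72, -0.29 to 2.75) against control, and it did not pass in any of the 8 comparisons.

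Gclm showed the same mice high. Its probe joins coding sequence across an intron, since its 60 bases span 2636 bases of the genome, and it is shown because it was the member most above control in a short-fiber group after Gclc.

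Gclm probe (NCBI37, chr3:121962174-121964809, plus strand): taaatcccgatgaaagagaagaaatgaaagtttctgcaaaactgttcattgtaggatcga

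It gave -1.18, -1.69, -1.20, and -1.35 in control, -0.56, -1.95, -0.77, and -2.07 in LFA, -1.5, -0.98, 0.71, and 1.03 in NTS, and -1.95, -1.98, -1.18, and -1.81 in NTL. The change in NTS against control was 1.17 (SE 0.48, 0.15 to 2.18), with an unadjusted limma p of 0.0263 and an adjusted p of 1.0. NTL was below NTS by 1.54 (SE 0.48, -2.55 to -0.53, limma adjusted p = 0.0542), which did not pass, although 6 of the 14 alternatives besides leaving out single mice called it.

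The 4 mice with the highest Gclc and Gclm had the 4 highest levels of liver transcripts, which were present in other mice too. The mean relative signal of the tested liver markers (Alb, Ahsg, Apoa1, Apoa2, Apoh, Fgb, and Ttr) was 7.16 and 7.70 in LFA replicates 1 and 3 and 8.64 and 8.58 in NTS replicates 3 and 4, and these 4 arrays had the 4 highest readings of both genes. SFA replicate 2, at 7.05, had the next highest Gclc, 2.15, but a Gclm of -1.24, within the range of the control mice. The other 15 arrays ran from -2.91 to 4.74. Over the list, the summed linear signal ran from 9.09 to 283 times the 75th percentile in control, 5.41 to 2336 in LFA, and 9.65 to 4074 in NTS. With the liver list as a covariate, chosen after seeing the data, the NTS change against control was 0.71 for Gclm (SE 0.35) and 0.51 for Gclc (SE 0.48), the LFA change of Gclc was 0.40 (SE 0.47), and Gclm was called lower in NTL than in NTS (-1.41, SE 0.33, limma adjusted p = 0.0119). In the same fit Hmox1 stayed at 1.18 in LFA against SFA and 1.04 in NTL against NTS.

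**Figure D4:**
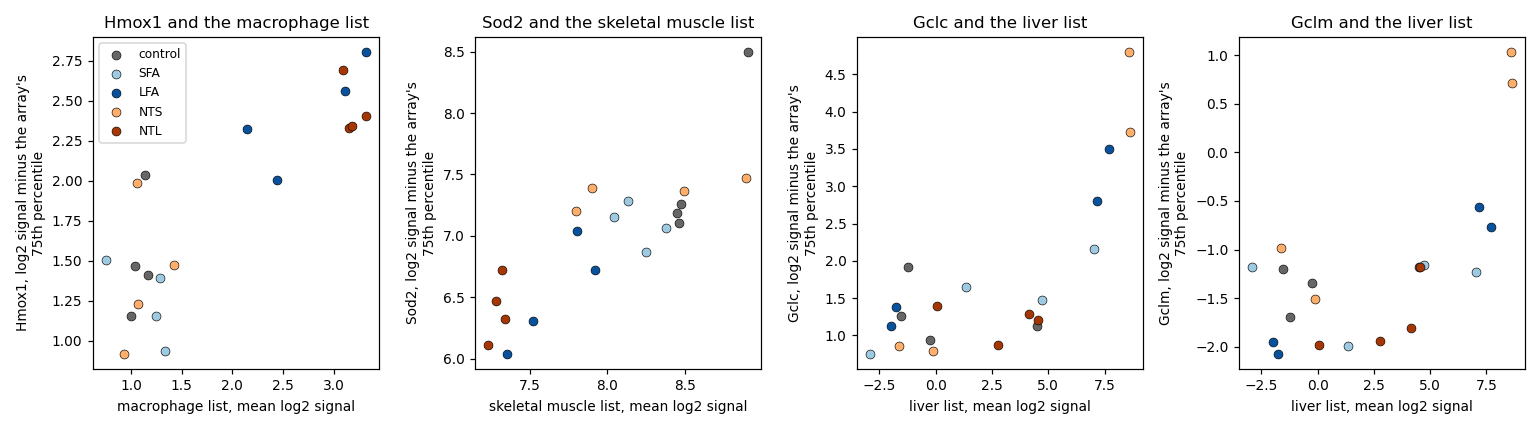
Relative signal (vertical axes) of Hmox1, Sod2, Gclc, and Gclm against the mean relative signal of a marker list (horizontal axes), with a point for each of the 20 mice. Hmox1 and the macrophage list are both high in LFA and NTL, Sod2 and the muscle list are both low there, and the highest Gclc and Gclm readings lie at liver list values above 7.

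Slc7a11 encodes the light chain of the cystine importer that feeds glutathione synthesis. It was well above background on 2 of 20 arrays, LFA replicate 4 (-4.88) and NTL replicate 3 (-3.91), and was not tested. Its readings on the other 18 arrays, -7.80 to -6.44, are not well above background. Slc3a2, which encodes the heavy chain of the same importer and of other amino acid transporters, changed by 0.94 in NTL against control (0.42 to 1.47, limma adjusted p = 0.0273), which passed the adjusted p but not 2-fold.

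Txnrd1 encodes the cytosolic thioredoxin reductase and Srxn1 encodes sulfiredoxin, which restores overoxidized peroxiredoxins. Txnrd1 stood at 2.88 ± 0.44 in control, 2.77 ± 0.25 in SFA, 3.01 ± 0.27 in LFA, 3.36 ± 0.22 in NTS, and 2.87 ± 0.33 in NTL (SD, n = 4). It changed by 0.13 in LFA (-0.40 to 0.65) and -0.01 in NTL (-0.54 to 0.52) against control, so that the intervals leave out a 2-fold change. Srxn1, whose promoter window above held the most core matches, stood at 2.98 ± 0.65 in control, 3.06 ± 0.34 in LFA, and 3.09 ± 0.42 in NTL, and changed by 0.08 (-0.55 to 0.71) and 0.11 (-0.52 to 0.74). The intervals of Srxn1 in LFA and NTL also leave out a 2-fold change.

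Nqo1, a reductase of quinones and a commonly used readout of NRF2, stood at 0.81 ± 0.29 in control, 0.97 ± 0.15 in SFA, 0.46 ± 0.59 in LFA, 0.85 ± 0.17 in NTS, and 0.61 ± 0.14 in NTL (SD, n = 4). In LFA the mice read 0.36, 0.16, 0.01, and 1.31, so that 3 of the 4 were below all controls and 1 was above them. The change against control was -0.35 in LFA (-0.88 to 0.17) and -0.20 in NTL (-0.73 to 0.33), and a rise of 2-fold lies outside both intervals. Against SFA, LFA gave -0.52 (-1.05 to 0.01, limma adjusted p = 0.411).

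Of 68 further genes of the pathway, in 7 lists by role, 67 were tested. Against control, 0 were called higher and 1 lower in LFA, and 0 higher and 2 lower in NTL, beside 2.21% higher and 1.75% lower of all tested probes in LFA and 3.64% and 3.16% in NTL. The medians over the 67 genes were -0.28 in LFA and -0.44 in NTL, where the medians of all tested probes were -0.28 and -0.25. In SFA and NTS limma called 0 of the 67 and 0% of all tested probes. At an unadjusted limma p under 0.05 were 0 and 3 of the 67, beside 2.3% and 3.52% of all tested probes.

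Akr1b10, an aldo-keto reductase of the quinone and carbonyl list, was called lower in both, by -1.04 in LFA (-1.64 to -0.44, limma adjusted p = 0.0454) and -1.03 in NTL (-1.62 to -0.43, limma adjusted p = 0.0343). Gstm2, a glutathione transferase, was called lower in NTL (-1.09, -1.61 to -0.57, limma adjusted p = 0.0123). Txn2, the mitochondrial thioredoxin, which like Slc3a2 is named after its values were seen, passed the adjusted p but not 2-fold in LFA (-0.94, limma adjusted p = 0.0376) and in NTL (-0.99, limma adjusted p = 0.0188). With slide as a block, Gstm2 in NTL was the only one of these calls left. Quantile normalization left neither Akr1b10 nor Gstm2 called and called Slc3a2 higher in NTL. Leaving out single mice, no pathway gene was called in LFA against control in 16 of the 20 fits.

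The list medians in NTL were lowest for superoxide and peroxide removal (-0.80, 0 of 6 called) and for thioredoxin and peroxiredoxin (-0.60, 0 of 11 called). NADPH supply had a median of -0.49 in NTL and -0.63 in LFA, with 0 of 6 called in either. Heme and iron products, which includes the ferritin and heme pathway genes other than Hmox1, had medians of -0.04 in NTL and 0.13 in LFA and 0 of 7 called. The glutathione list had 0 of 19 called in LFA, with a median of 0.12, and 1 of 19 in NTL, with a median of -0.26.

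**Figure D5:**
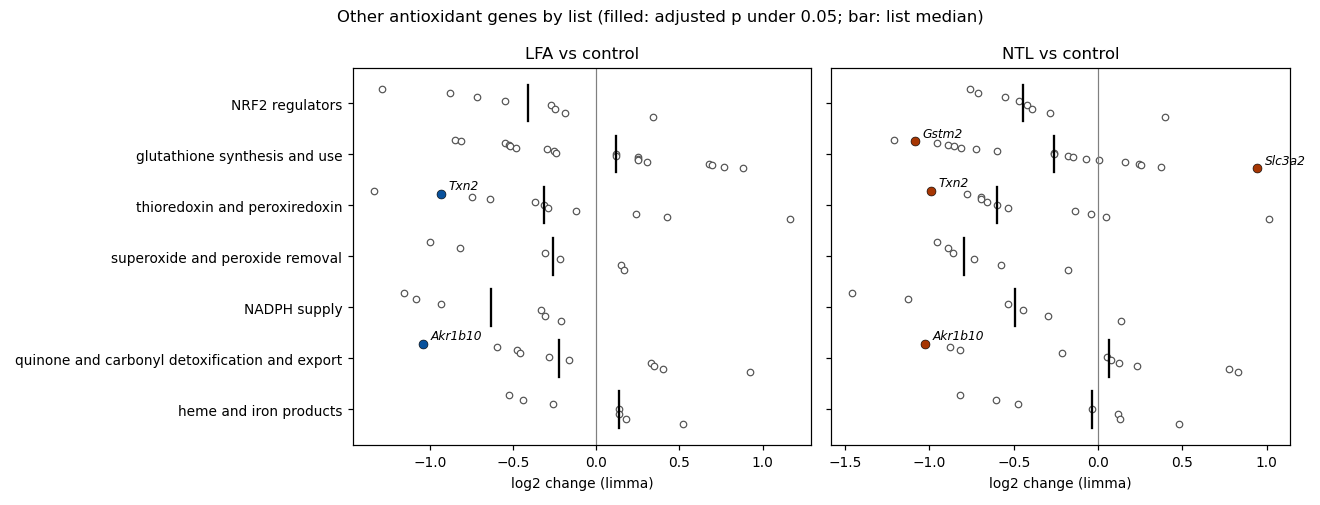
Log2 change against control (horizontal axis) of the 67 other antioxidant genes in LFA (left) and NTL (right), by list; filled points passed an adjusted p under 0.05, open points did not, and bars are list medians. Txn2 and Akr1b10 are the filled points in LFA, and Gstm2, Txn2, Akr1b10, and Slc3a2 in NTL.

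For fiber length, LFA against SFA called 0 of the 67, beside 1.16% of all tested probes. There 5 of the 67 had an unadjusted limma p under 0.05, beside 12.6% of all tested probes. NTL against NTS called 5 of the 67, all lower. Of all tested probes 7.57% were called there in either direction and 2.65% were called lower. The 5 genes, named after their values were seen, were Gss, the glutathione synthetase (-1.15), the glutathione transferases Gsta4 (-1.44), Gstm1 (-1.88), and Gstm2 (-1.19), and Cbr1, a carbonyl reductase (-1.33), with limma adjusted p from 0.00559 to 0.0494. The NTS replicates 3 and 4, with the highest liver list values, are in this comparison, and their part in these 5 genes was not tested.

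The difference of the length effects, LFA minus SFA less NTL minus NTS, was called by limma for 0 of the 9 genes and 0% of all tested probes. It was 0.14 for Hmox1 (-0.64 to 0.91) and 0.39 for Sod2 (-0.48 to 1.25). Gclm was the only gene of the 9 with an unadjusted p under 0.05, beside 3.46% of all tested probes, at 1.60 (0.16 to 3.03, limma adjusted p = 1.0). LFA and NTL, which were given at different doses, read side by side at 2.42 and 2.44 for Hmox1 and at 6.53 and 6.41 for Sod2, and limma called 0 of the 9 genes and 0% of all probes between them, with 0 of the 9 and 1.54% of all probes at an unadjusted p under 0.05.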

How the data were processed

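Total RNA from the diaphragm was labeled with Cy3 and hybridized to 1-color mouse arrays, and the authors deposited scanner files whose processed signals are background-corrected intensity values per spot, read with Agilent Feature Extraction 10.7.3.1 per the submitters' processing notes. A table of log2 values, 1 column for each group, was deposited too, and it was set against the arrays as a check and not tested. Control spots and outlier spots were left out, spots of a probe were averaged, and log2 intensity minus the 75th percentile of the array was used. Groups came from the sample labels. Probes well above background on at least 4 of 20 arrays were fitted with limma 3.58.1 in R 4.3.3, with a mean for each of the 5 groups over all 20 arrays, and p-values were adjusted by Benjamini-Hochberg over all tested probes. A gene with several probes was represented by the brightest, which for Hmox1 is the one nearer the 3′ end. The genes named were all members of the set, up to 20 pathway genes called in LFA or NTL against control, Keap1, Bach1, Sod1, and Cat always, and the 3 genes most like a member called against control. The members and lists were chosen with earlier results of these data known. The study's methods name a Welch analysis of variance over the groups, called the methods' test here, which was run as an alternative, adjusted over all tested probes or, as the methods have it, over probes already 2-fold from control. The other alternatives were normexp background, quantile normalization, filters on dim probes, the mean of the probes of a gene, slide, scan day, or replicate number as a block, only the groups compared, array weights, and single arrays left out. Fits with a covariate (the 5′ to 3′ index, or the liver, muscle, or macrophage list) were added after seeing the data. The limma fit was tested on simulated data with known changes. The number of arrays limits the precision, and the labels give 4 mice per group as separate samples. Promoter windows are from RefSeq.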

Additional observations from a re-analysis of the deposited data

Results flagged for a closer look

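In 7 of 55 sets of 4 mice, 1 mouse stood apart from the other 3 by Dixon's criterion, which chance gives in about 1 in 20 sets, or 2.75 of 55. Sod2 in control replicate 2 read 8.49, with the nearest control at 7.26, and Sod3 in the same mouse read 4.36, with the nearest at 4.10. Gclm in SFA replicate 1 read -2.0, below the nearest at -1.24. Nfe2l2 in NTS replicate 4 read 4.50, above the nearest at 2.99. Slc7a11 stood apart in SFA replicate 2 (-6.67), LFA replicate 4 (-4.88), and NTL replicate 3 (-3.91), and of these the SFA reading was not well above background.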

How the results depend on the processing

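Among results for single genes, 2743 were unchanged under an alternative, 33 lost a call, 16 gained one, and 0 changed direction with a call. Unchanged results kept their side of the threshold, but the 2743 also include values from the deposited group table, which have no p. Those counted as unchanged when they lay close to the main value relative to its SE. The counts that moved by over 1.5 times follow, and the cause was not tested. For LFA against control, where 1462 probes and 1 pathway gene were called, probes numbered 961 with no filter on dim probes, 922 with slide as a block, 586 with only the groups compared, 5203 with array weights, 14 with the muscle list, 1 with the macrophage list, and 2702 with the index. Pathway genes there were 0 with normexp, quantile, no filter, the mean of probes, slide, the replicate block, only the groups compared, and the liver, muscle, and macrophage lists, and 2 with array weights, and 1 gene of the set was called with the index. For NTL against control, where 2511 probes, 1 gene of the set, and 2 pathway genes were called, probes numbered 1325 with slide, 1190 with scan day, 4487 with array weights, 8 with the muscle list, 0 with the macrophage list, and 4129 with the index. Genes of the set called were 0 with slide, scan day, only the groups compared, array weights, and the muscle and macrophage lists. With quantile normalization the count stayed at 1, but the gene called was Hmox1 in place of Sod2. Pathway genes were 1 with quantile, no filter, slide, or scan day, 0 with only the groups compared and the muscle and macrophage lists, 4 with array weights, 6 with the liver list, and 7 with the index.

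For LFA against SFA, where 428 probes and 1 gene of the set were called, probes numbered 173 with only the groups compared, 78 with the muscle list, 1 with the macrophage list, and 715 with the index, and genes of the set were 0 with no filter, the mean of probes, slide, the replicate block, only the groups compared, and the muscle and macrophage lists. For NTL against NTS, where 2796 probes and 1 gene of the set were called, probes numbered 766 with slide, 902 with scan day, 1783 with only the groups compared, 8352 with array weights, 464 with the muscle list, 0 with the macrophage list, and 4692 with the index. Genes of the set were 2 with normexp, the filter on all 20 arrays, array weights, the liver list, and the index, and 0 with slide, scan day, only the groups compared, and the macrophage list. Hmox1 was among the 2 except with the index, where they were Gclm and Sod2. With the mean of probes and with the muscle list the count stayed at 1, but the gene called was Gclm in place of Hmox1. SFA against control called 1 probe with normexp or the filter on all 20 arrays, 18 with array weights, and 4 with the index, and NTS against control called 2 with array weights. The methods' test called 0 genes of the set with p-values adjusted over all tested probes, and 1, Sod2, with 2-fold probes taken first, an order added after seeing the data.

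Leaving out single mice, probes called ran from 467 to 2680 for LFA, 1399 to 3078 for NTL, and 0 to 1 for SFA against control, 155 to 528 for LFA against SFA, 1717 to 5437 for NTL against NTS, and 0 to 6 for LFA against NTL. Genes of the set called ran from 0 to 1 for LFA, NTL, and LFA against SFA and from 0 to 2 for NTL against NTS, and pathway genes from 0 to 1 for LFA and 0 to 4 for NTL.

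The replicate numbers did not pair the mice: 4 of 20 arrays were most like an array of their own number. With the replicate block, Hmox1 in LFA against SFA had a limma adjusted p of 0.0528 and 0 genes of the set were called there, and the 1 pathway gene in LFA became 0. Under quantile normalization the share of called probes that were higher went from 55.8% to 75.9% in LFA, from 53.5% to 72.3% in NTL, and from 64.9% to 78.8% in NTL against NTS. Dim probes, such as that of Slc7a11, which was not tested, limit what could be seen. The 5′ probe of Hmox1 was dimmer than the 3′ probe but well above background on all 20 arrays.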
